A study of Mus musculus with 5 samples.

Results

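The small heat shock proteins of muscle were followed here as 7 genes, Hspb1, Hspb2, Hspb3, Hspb6, Hspb7, Hspb8 and Cryab, chosen by gene symbol from the 49315 genes of each count table. All 7 were found and all 7 passed the filter on low counts. Poly-A RNA was sequenced from mouse hearts, labelled as whole heart with mixed cell types. There were 3 hearts from mice kept for 18 weeks on a high-fat, high-sucrose (HFHS) diet and 2 from mice kept on standard chow. All mice of both groups had received iron dextran, in which iron is bound to a carbohydrate, once into a vein; their hearts were rinsed with buffered saline and frozen 48 hours later. The comparison is therefore between diets after iron, and no effect of iron itself was measured. The sources used here give no strain, sex or age. That the libraries are separate mice rests on their labels alone, so the p-values reflect spread between libraries that may be technical.

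Small heat shock proteins are chaperones that share the alpha-crystallin domain, assemble into oligomers and hold unfolding proteins without using ATP, so that ATP-driven chaperones such as HSP70 can refold them or pass them on for breakdown. Heart muscle, whose filaments are under constant mechanical load, contains several of them at high levels, and they associate with desmin, titin, filamin and actin. Many heat shock genes carry heat shock elements, inverted repeats of the bases GAA to which heat shock factors such as HSF1 bind.

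Promoter sequences from RefSeq (GRCm38.p6), reaching from 250 bases before a transcription start to 50 after it, were found for 5 of the 7 genes, in 6 windows because Hspb6 has more than 1 start. Cryab and Hspb2 were not matched. Pairs of inverted GAA units were searched as GAANNTTC and TTCNNGAA, each of which reads the same on both strands. Of the 6 windows, 4 held GAANNTTC, while none held TTCNNGAA. Among all 32851 windows of the table, 7.86% held GAANNTTC and 8.52% held TTCNNGAA. The same 8 letters, GAAGTTTC, stood in 3 windows, those of Hspb1, Hspb8 and the downstream start of Hspb6. They were found on either strand in 1.21% of all windows. That 8-letter form was picked out after the sequences had been seen. The windows of Hspb7 and of the upstream start of Hspb6 held no match. Beside them, the stretches that hold a GAANNTTC match in the other 4 windows are shown. Each is 60 bases, read 5′ to 3′ on the strand of the gene, with the matched units in capitals:
Hspb1 (chr5:135887786-135887845, plus strand): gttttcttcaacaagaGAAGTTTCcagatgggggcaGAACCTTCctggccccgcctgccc
Hspb8 (chr5:116422845-116422904, minus strand): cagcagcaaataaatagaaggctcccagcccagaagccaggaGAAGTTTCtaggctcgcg
Hspb6, downstream start (chr7:30553155-30553214, plus strand): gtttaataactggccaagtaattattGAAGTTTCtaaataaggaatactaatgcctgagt
Hspb3 (chr13:113663867-113663926, minus strand): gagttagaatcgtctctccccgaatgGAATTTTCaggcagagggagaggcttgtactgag

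The first unit of Hspb1 begins 117 bases before the start and the second 97 bases before it, that of Hspb6 begins 120 bases before it and that of Hspb3 224 bases before it. In Hspb8 the unit begins at base 3 of the transcript. A match describes letters only and does not show that a factor binds there.

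The libraries held 14362766 to 17774735 counts each. Cardiomyocyte markers were present in every library, at a sum of 77654 to 80866 CPM, counts scaled to the library size, in HFHS and 68165 to 75946 CPM in chow hearts, and of the 12 markers 5 rose and 5 fell. The 10 fibroblast markers fell, with a sum of 1738 to 1749 CPM against 2490 to 2568 CPM, as did 6 of 9 endothelial, 11 of 11 macrophage and 6 of 6 red cell markers. Of 9 markers of smooth muscle and pericytes, 3 fell and 1 rose, with sums of 1288 to 1357 CPM against 1478 to 1481 CPM. Over all tested genes, 19.4% were called higher and 18.7% lower by the test given below. The skeletal muscle markers summed to 23.4 to 25.2 CPM in HFHS and 31.6 to 39.5 CPM in chow hearts, with Myh2 and Myh4 at 0 in all 5 libraries. The fat cell markers summed to at most 0.663 CPM. Several small heat shock proteins are made in smooth and skeletal muscle too; the part of these shifts in the results below was not tested. In whole hearts, fewer cells of a type and less RNA per cell cannot be told apart. Log2 fold changes, HFHS minus chow, also went up with exon length over all tested genes. Median exon lengths were 790 bases for red cell, 1572 for macrophage, 3373 for fibroblast and 4712 for endothelial markers. The cardiomyocyte markers that rose had 4163 to 116825 exon bases. Of those that fell, Tnnc1, Myl2, Myl3 and Tnni3 had 1041 to 2063 bases and Tnnt2 had 7752. The part of exon length in the marker counts and sums was not tested.

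Per kilobase of exon, Cryab was the most abundant of the 7 in chow hearts, at 649.0 ± 81.0 CPM per kb (SD, n = 2). Hspb7 followed at 367.1 ± 12.4, Hspb8 at 215.3 ± 10.2 and Hspb6 at 192.8 ± 5.48 CPM per kb. Hspb1 was at 76.4 ± 0.0360, Hspb2 at 54.2 ± 6.94 and Hspb3 at 12.2 ± 3.50 CPM per kb. The order in chow hearts was the same in both libraries, and no neighbours in it overlapped. In HFHS hearts Cryab, at 604.5 ± 70.0 CPM per kb (SD, n = 3), and Hspb7, at 574.1 ± 55.2 CPM per kb, had overlapping ranges, and so did Hspb6, at 243.3 ± 14.3, and Hspb8, at 231.0 ± 18.2 CPM per kb. Hspb1 was at 62.3 ± 15.6, Hspb2 at 39.4 ± 4.24 and Hspb3 at 6.99 ± 0.102 CPM per kb, in the same order as in chow. Among the 14221 tested genes ranked by level per kb, Cryab stood at place 56 in chow and 49 in HFHS hearts, and Hspb7 at 109 and 53. Exon length counts the exons of all annotated transcripts, 6 for Cryab, 4 for Hspb6 and 2 each for Hspb1, Hspb2 and Hspb8. The levels per kb of these genes may therefore be understated.

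**Figure D1:**
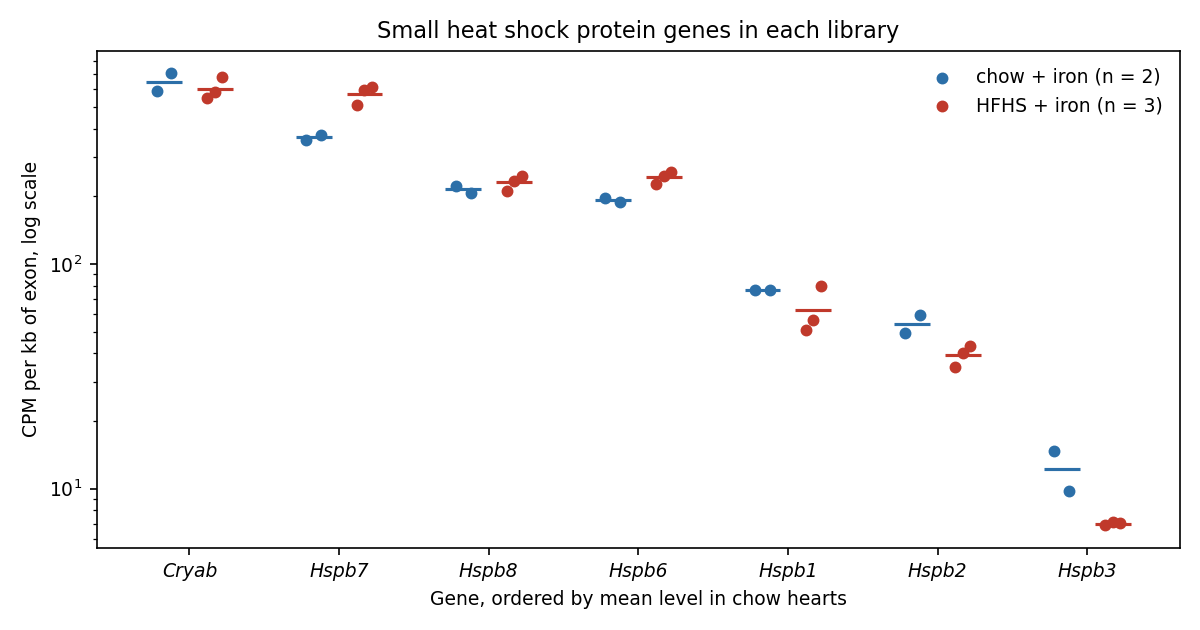
Level of the 7 small heat shock protein genes in each library, in CPM per kb of exon on a log axis; each point is 1 library and each bar the group mean (blue, chow with iron, n = 2; red, HFHS with iron, n = 3). The Hspb7 and Hspb6 points of HFHS hearts lie above both chow points, those of Hspb2 and Hspb3 below, and those of Cryab, Hspb8 and Hspb1 overlap.

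Between diets the family split. Hspb7 and Hspb6 rose 1.56-fold and 1.26-fold in HFHS hearts, Hspb3 and Hspb2 were 1.75-fold and 1.38-fold lower, and Cryab, Hspb8 and Hspb1 did not pass the test. Counts were tested with edgeR's quasi-likelihood test, with p-values adjusted by Benjamini-Hochberg over all tested genes and a threshold of 0.05. Of the 14221 genes, 38.1% were called, 19.4% as higher and 18.7% as lower in HFHS hearts, beside which 2 of the 7 were called higher and 2 lower. With so many genes called, these counts are not a result about the family as a group. The groups did not overlap for 4 of the 7 (higher or lower), where 58.5% of all tested genes had groups that did not overlap. The median log2 fold change, HFHS minus chow, was -0.10 over the 7 genes and -0.01 over all tested genes.

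The size and sign of the difference followed exon length. From the shortest gene to the longest, the log2 fold change was -0.81 for Hspb3 (781 bases of exon), -0.46 for Hspb2 (834 bases), -0.30 for Hspb1 (1031 bases), -0.10 for Cryab (1479 bases), 0.10 for Hspb8 (1950 bases), 0.34 for Hspb6 (2299 bases) and 0.65 for Hspb7 (2769 bases). No pair of neighbours in length broke that order. Over all tested genes the median log2 fold change also went up with exon length, being -0.47 in the first of 10 bins of equal size, 57 to 1436 bases, where Hspb1, Hspb2 and Hspb3 lie, and 0.32 in the last. It was -0.32 in the next bin, 1436 to 2121 bases, which holds Cryab and Hspb8, -0.18 in that of Hspb6 and -0.12 in that of Hspb7. Hspb8, Hspb6 and Hspb7 thus lay above zero in bins whose medians lay below it. The part of the length trend in the diet differences was examined with an offset for each library, a smooth curve of its log counts on exon length fitted over all tested genes. The offset took the rank correlation of log2 fold change with exon length, across genes that are not independent replicates, from 0.43 to 0.029.

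**Figure D2:**
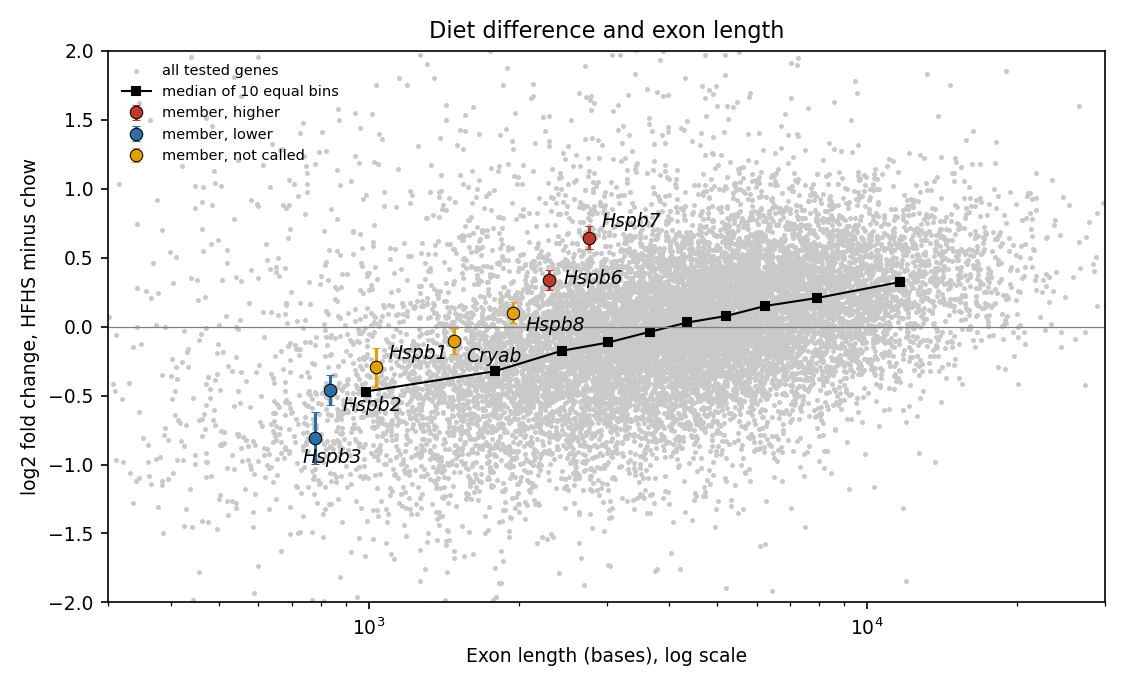
Log2 fold change, HFHS minus chow, against exon length in bases on a log axis, for all tested genes (grey), the medians of 10 equal bins by length (black squares) and the 7 small heat shock protein genes with their standard errors (red higher, blue lower, orange not called); 166 tested genes outside the axes are not drawn. The 7 genes climb from -0.81 at 781 bases to 0.65 at 2769 bases, while the medians of the bins that hold them go from -0.47 to -0.12.

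With the length offset, 3 of the 7 were called higher, Hspb7, Hspb6 and Hspb8, and none was called lower in edgeR, where 30.0% of all tested genes were called, 15.0% higher and 15.0% lower. Under that offset, no member was lower at an unadjusted p under 0.05 either; with the offset for length and GC content together, 1 was at an unadjusted p under 0.05, and no other tool was run with these offsets. The log2 fold changes became -0.39 for Hspb3, -0.05 for Hspb2, 0.10 for Hspb1, 0.23 for Cryab, 0.36 for Hspb8, 0.53 for Hspb6 and 0.78 for Hspb7. The order by exon length was the same with the offset as without it, and the span from the lowest to the highest narrowed from 1.45 to 1.16. Between these fits, Hspb2 and Hspb3 were called only without the offset and Hspb8 only with it.

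**Figure D3:**
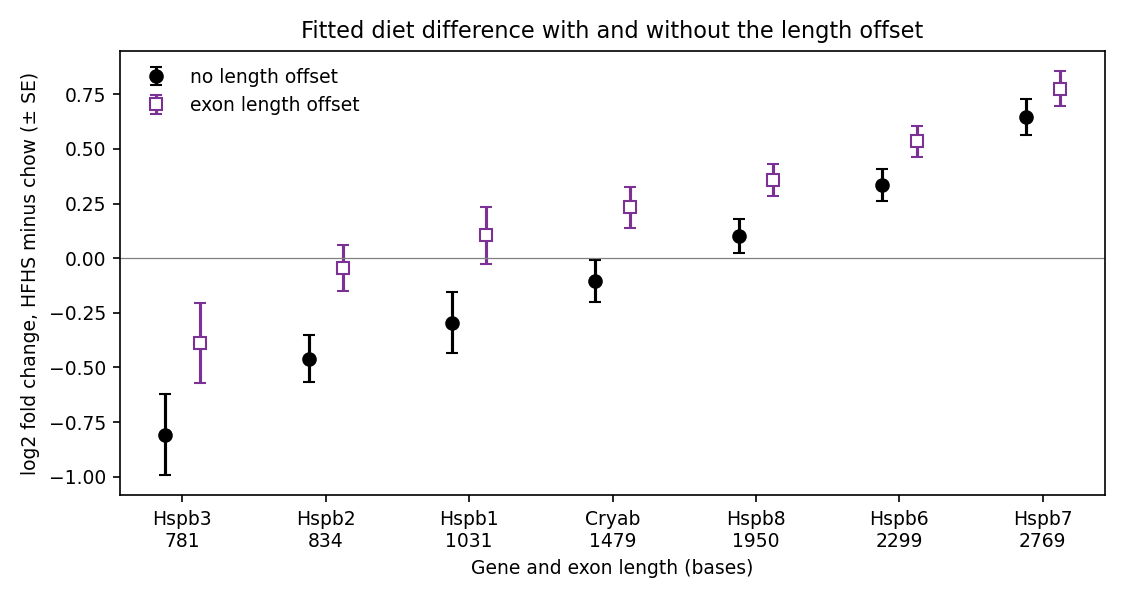
Fitted log2 fold change, HFHS minus chow, with its standard error for the 7 genes in order of exon length, without an offset (black circles) and with an offset for the length trend over all genes (open squares). Hspb7 and Hspb6 are above zero in both fits, Hspb8 moves from 0.10 to 0.36, and Cryab and Hspb1 change sign.

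Hspb7, the cardiovascular small heat shock protein, binds filamin C and helps keep the thin filaments of the sarcomere in order. The gene (ENSMUSG00000006221, chromosome 4 from 141420779 to 141425311, plus strand, GRCm38) has 3 exons and shares no exon base with another annotated gene. It was at 1416, 1646 and 1706 CPM in HFHS replicates 1, 2 and 3 and at 992.2 and 1041 CPM in chow replicates 1 and 2. All HFHS libraries lay well above both chow libraries. Its counts ran from 18327 in chow replicate 1 to 25246 in HFHS replicate 3. The log2 fold change was 0.65 (SE 0.0817), with an edgeR adjusted p of 3.36e-05. Hspb7 was called higher in all 17 alternatives tried, with log2 fold changes from 0.41 to 0.78.

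Hspb6, also called HSP20, is phosphorylated by cyclic nucleotide-dependent kinases, after which it binds 14-3-3 proteins, and it is known for protecting cardiomyocytes and relaxing smooth muscle. The gene (ENSMUSG00000036854, chromosome 7 from 30552178 to 30555443, plus strand) was at 523.5, 565.9 and 588.5 CPM in HFHS replicates 1, 2 and 3 and at 452.1 and 434.3 CPM in the chow libraries. The HFHS libraries were again all above the chow libraries, though by less than for Hspb7. On the log2 scale the difference was 0.34 (SE 0.0723), with an edgeR adjusted p of 0.00222. Of its exon bases, 8.79% are shared with other annotated genes, of which Proser3 and Lin37 on the opposite strand had 28 to 124 counts a library, against 7819 to 8709 for Hspb6. With library sizes set to the summed counts of the cardiomyocyte markers, the log2 fold change of Hspb6 was 0.09, with an edgeR adjusted p of 0.479. The scaling moved the median of all tested genes to -0.25, relative to which Hspb6 was higher by 0.35 and Hspb7 by 0.66. They stood as far above the median in the main fit, by 0.35 and 0.66. A change of library sizes shifts all genes by about the same amount, so these distances do not bear on the lost call of Hspb6.

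Hspb8, or HSP22, works with the cochaperone BAG3 in the chaperone-assisted autophagy of damaged filament proteins. The gene (ENSMUSG00000041548, chromosome 5 from 116408491 to 116422864, minus strand) was at 412.6, 455.9 and 483.0 CPM in HFHS replicates 1, 2 and 3 and at 433.8 and 405.7 CPM in chow replicates 1 and 2. HFHS replicate 1 lay between the chow libraries and the others above them. The log2 fold change was 0.10 (SE 0.0780), with an edgeR adjusted p of 0.332. With the length offset it was 0.36 (SE 0.0743), and the edgeR adjusted p was 0.00228; scaled to the cardiomyocyte markers it was -0.14, with an adjusted p of 0.293.

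Cryab encodes alpha-B-crystallin, an abundant heart muscle chaperone that binds desmin and titin and whose mutation can cause desmin-related myopathy. The gene (ENSMUSG00000032060, chromosome 9 from 50751325 to 50756636, plus strand) was at 810.1, 862.4 and 1010 CPM in HFHS replicates 1, 2 and 3 and at 875.2 and 1045 CPM in chow replicates 1 and 2. The groups overlapped widely, and the highest library of each lay close to that of the other. On the log2 scale the difference was -0.10 (SE 0.0957), with an edgeR adjusted p of 0.433. It was 0.03 without chow replicate 2, with an edgeR adjusted p of 0.850. With the length offset it was 0.23, and the adjusted p was 0.0722. Scaled to the cardiomyocyte markers it was -0.34 and passed, with an adjusted p of 0.0156 (range over the alternatives 0.0156 to 0.850). The sign of the Cryab difference therefore depended on the offset and on 1 chow library. Its call depended on the scaling and on using the replicate number as a block, where the edgeR adjusted p was 0.0375.

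Hspb1, called HSP25 in mice, caps and steadies actin filaments and is phosphorylated by the kinase MAPKAPK2. The gene (ENSMUSG00000004951, chromosome 5 from 135887919 to 135889563, plus strand) was at 52.2, 57.9 and 82.5 CPM in HFHS replicates 1, 2 and 3 and at 78.7 and 78.8 CPM in the chow libraries. HFHS replicate 3 was the highest of all 5 libraries, while the other HFHS libraries were the lowest. The log2 fold change was -0.30 (SE 0.140), with an edgeR adjusted p of 0.113. Without HFHS replicate 3 it was -0.51, with an edgeR adjusted p of 0.000624, and with the length offset it was 0.10, with 0.590 (range over the alternatives 8.11e-06 to 0.684).

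Hspb2 and Hspb3 form a complex with each other in muscle, and Hspb2 also binds the kinase DMPK, whose gene carries the repeat of myotonic dystrophy. Hspb2 (ENSMUSG00000038086, chromosome 9 from 50751078 to 50752354, minus strand) was at 29.0, 33.5 and 36.0 CPM in HFHS replicates 1, 2 and 3 and at 41.1 and 49.3 CPM in chow replicates 1 and 2. Every HFHS library was below every chow library. On the log2 scale the difference was -0.46 (SE 0.108), with an edgeR adjusted p of 0.00387, and with the length offset -0.05, with an adjusted p of 0.787.

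Hspb2 lies head to head with Cryab, and the starts of their first-listed transcripts are 614 bases apart in GENCODE M21. A longer Cryab transcript starts inside Hspb2, so that 252 exon bases, 30.2% of Hspb2 and 17.04% of Cryab, belong to both genes on opposite strands. The sources used here do not say whether the counting used strand, so reads of the pair may not have been told apart, and the values of Hspb2, with 465 to 887 counts against 12015 to 18805 for Cryab, are uncertain. Per kb, Cryab was 15.7, 14.5 and 15.8 times as abundant as Hspb2 in HFHS replicates 1, 2 and 3, and 12.01 and 11.95 times in the chow libraries. The ratio was higher in all 3 HFHS libraries; 3 libraries against 2 cannot give a two-sided exact permutation p below 0.2.

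Hspb3 (ENSMUSG00000051456, chromosome 13 from 113662896 to 113663676, minus strand) has a single exon and was the scarcest of the 7, with 77 to 212 counts a library. It was at 5.37, 5.53 and 5.47 CPM in HFHS replicates 1, 2 and 3 and at 11.5 and 7.61 CPM in chow replicates 1 and 2. The HFHS libraries were nearly equal and all below the chow libraries, which were far apart. The log2 fold change was -0.81 (SE 0.186), with an edgeR adjusted p of 0.00345. Without chow replicate 1 it was -0.48 and did not pass, with an adjusted p of 0.0904, nor did it with the length offset, with -0.39 and 0.125 (range over the alternatives 3.63e-05 to 0.125).

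As a share of the summed level per kb of the 7 genes, Cryab made up 39.2% and 43.5% in chow replicates 1 and 2 and 34.4%, 33.1% and 35.3% in HFHS replicates 1, 2 and 3. Hspb7 made up 23.7% and 23.1% in chow and 32.2%, 33.8% and 31.9% in HFHS hearts. Per kb of annotated exon, Hspb7 therefore stood level with Cryab in HFHS hearts, with a ratio of 0.952 ± 0.0606 (SD, n = 3). It stood well under Cryab in chow hearts, with 0.569 ± 0.0519 (SD, n = 2). The shares of Hspb6 and Hspb8 lay closer together: Hspb6 was at 12.3% ± 0.988 in chow and 13.8% ± 0.547 in HFHS hearts and Hspb8 at 13.8% ± 1.36 and 13.1% ± 0.274. The summed level of the 7 was 1762 ± 170.9 CPM per kb in HFHS and 1567 ± 81.2 CPM per kb in chow hearts, and the groups overlapped, since HFHS replicate 1, at 1591, lay between the chow libraries. These are descriptions with no test, and they carry the length trend shown above. They also rest on the exons of all annotated transcripts, 6 for Cryab and 1 for Hspb7. Cryab may therefore be understated beside Hspb7 in both groups.

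**Figure D4:**
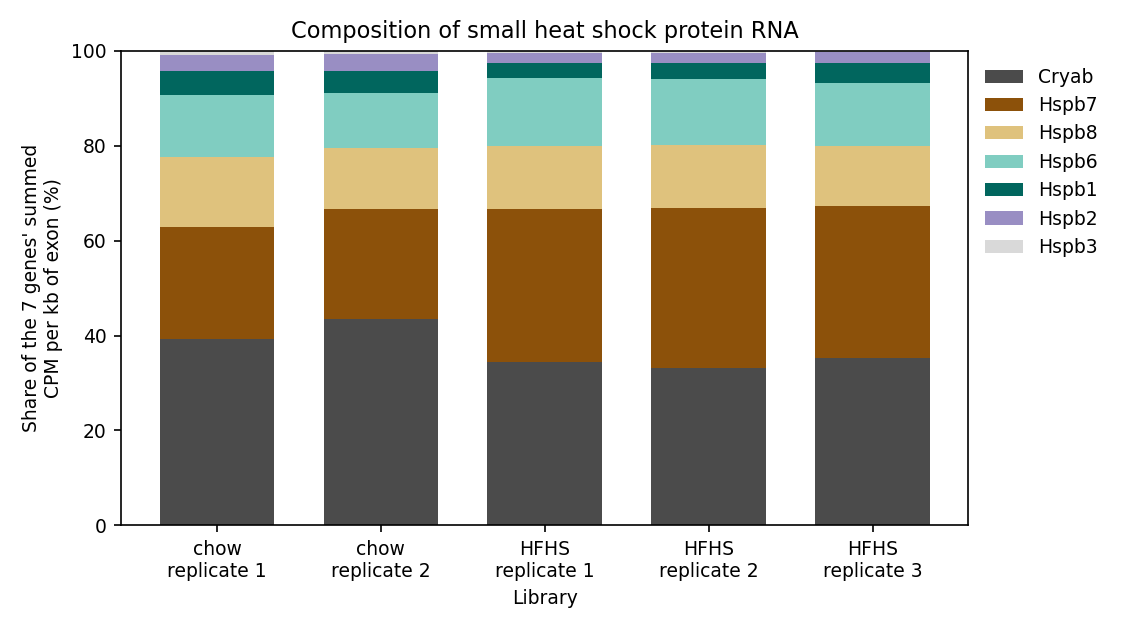
Share of each gene in the summed CPM per kb of the 7 small heat shock protein genes, in percent, for each library. Hspb7 takes 23.1% to 23.7% in chow and 31.9% to 33.8% in HFHS libraries, and Cryab 39.2% to 43.5% and 33.1% to 35.3%.

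Other members of the protein family are known from lens and testis and were all but missing. Cryaa, the lens alpha-crystallin, and Odf1, a sperm tail protein, had 0 counts in all 5 libraries, which allows at most 0.169 to 0.209 CPM. Hspb9 had 3 counts in chow replicate 1 and 0 elsewhere.

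Of the 10 genes of the BAG3 chaperone complex, 2 rose and 8 did not pass, with a median log2 fold change of -0.09. Over all tested genes, 19.4% were called higher and 18.7% lower. The counts of this list and of those below stand beside these shares, and no list was tested as a set. Bag3, the cochaperone that joins Hspb8 to HSP70, was at 191.4, 199.0 and 208.4 CPM in HFHS replicates 1, 2 and 3 and at 146.3 and 209.2 CPM in chow replicates 1 and 2. The chow libraries were the lowest and the highest of the 5, and the edgeR adjusted p was 0.272; without chow replicate 1 the log2 fold change went from 0.17 to -0.07, and without chow replicate 2 to 0.45, with an adjusted p of 0.000629. Synpo2, a Z-disc protein that links BAG3 to autophagosome formation, rose 1.55-fold, with an edgeR adjusted p of 4.56e-05. It has 13138 exon bases, and the length offset took its log2 fold change from 0.63 to 0.28, with an edgeR adjusted p of 0.0141. Hspa4, a nucleotide exchange factor of HSP70, rose 1.38-fold, with an edgeR adjusted p of 0.000195. The offset took its log2 fold change from 0.47 to 0.37, with an edgeR adjusted p of 0.00151. The constitutive HSP70 gene Hspa8 was at 1226 ± 87.1 CPM (SD, n = 3) and 1366 ± 147.6 CPM (SD, n = 2), with an edgeR adjusted p of 0.145. It was -0.26 on the log2 scale and passed without chow replicate 1, with an edgeR adjusted p of 0.0183. The ubiquitin ligase gene Stub1 was at 33.3 ± 0.879 CPM and 37.0 ± 0.0522 CPM in HFHS and chow hearts, and its edgeR adjusted p was 0.178. The inducible Hspa1b was low and scattered, at 1.87 to 5.61 CPM in HFHS and 2.87 and 11.7 CPM in chow hearts, with an edgeR adjusted p of 0.0678. Its log2 fold change was -1.19, against -1.88 without chow replicate 1, which passed, and 0.15 without chow replicate 2; its near-identical copy Hspa1a makes the split of reads uncertain.

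Of 10 clients and binding partners, 5 rose, 2 fell and 3 did not pass, beside 19.4% of all tested genes called higher and 18.7% lower. The median log2 fold change of the 10 was 0.29 and their median exon length 4537 bases. Ttn and Actc1 are also among the cardiomyocyte markers. Flnc, the filamin of striated muscle bound by Hspb7, rose 1.97-fold, from 149.3 and 189.0 CPM in chow to 307.0, 345.5 and 349.4 CPM in HFHS hearts. Its edgeR adjusted p was 4.26e-06, and with the length offset its log2 fold change of 0.98 became 0.73 and still passed, with 5.70e-05. Dmpk rose 1.32-fold, with an edgeR adjusted p of 0.000606. Ttn, the giant spring of the sarcomere, rose 1.85-fold without the offset, but with its 116825 exon bases the length offset took its log2 fold change from 0.89 to 0.06, with an adjusted p of 0.530. Des, the muscle intermediate filament bound by Cryab, was at 1152 ± 37.1 CPM (SD, n = 3) in HFHS and 1105 ± 48.8 CPM (SD, n = 2) in chow hearts, with an edgeR adjusted p of 0.509. Vim, the intermediate filament of fibroblasts and endothelium, fell 1.57-fold, beside the falling markers of those cells given above.

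Heat shock factors did not pass. Hsf1, the main activator of heat shock genes, was at 20.9 ± 1.62 CPM (SD, n = 3) in HFHS and 20.7 ± 1.77 CPM (SD, n = 2) in chow hearts, with an edgeR adjusted p of 0.931. Hsf2 was at 16.5 ± 0.860 CPM and 14.01 ± 0.216 CPM, and its edgeR adjusted p of 0.106 became 0.0156 with the length offset, and Hsf4 was at 3.07 ± 0.390 CPM (HFHS) and 2.39 ± 0.160 CPM (chow), with 0.288. Of this list of 5, in which Hsf5 was too low to test, 1 gene passed: Hsbp1, a small protein that binds HSF1 and holds it back, fell 1.27-fold, with an edgeR adjusted p of 0.00409. With its 1861 exon bases, Hsbp1 lost that call with the length offset, where its log2 fold change of -0.34 became -0.07, and without chow replicate 1, where the adjusted p was 0.0520.

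Of 15 kinases that act on small heat shock proteins and 14-3-3 proteins, 3 rose, 4 fell and 8 did not pass. Over all tested genes, 38.1% were called. Prkaca, the catalytic subunit of protein kinase A, which phosphorylates Hspb6, was at 203.1 to 209.9 CPM in HFHS and 150.1 and 157.4 CPM in chow hearts. It rose 1.34-fold, with an edgeR adjusted p of 0.000314. Mapkapk2, the kinase of Hspb1, was at 231.0 ± 10.96 CPM (SD, n = 3) and 211.9 ± 3.31 CPM (SD, n = 2), with an edgeR adjusted p of 0.188 that became 0.0281 with the length offset. The 14-3-3 genes moved both ways. Ywhag rose 1.53-fold and Ywhaq fell 1.54-fold, with edgeR adjusted p of 6.28e-05 and 3.89e-05, and both calls were kept in all 17 alternatives. Scaled to the cardiomyocyte markers, Prkaca, Dmpk and Hspa4 no longer passed, with adjusted p of 0.129, 0.182 and 0.0550.

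Likeness was measured as the root mean square distance between log2 CPM values centred over the 5 libraries, against 7987 other genes with a mean of at least 10 CPM. The profiles nearest to that of Hspb7 were Tfdp2, at a distance of 0.025, Mllt6, at 0.036, and Lrrcc1, at 0.038. Those nearest to Cryab were Hr, at 0.025, Josd1, at 0.033, and Trim65, at 0.034. Within the family, Hspb6 and Hspb8 were each other's nearest, at 0.117, and so were Hspb1 and Hspb2, at 0.174; Hspb7 was nearest to Hspb6, at 0.160, Cryab to Hspb8, at 0.156, and Hspb3 to Hspb2, at 0.306. With 5 libraries such distances describe these libraries only.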

How the data were processed

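The authors deposited a table of raw counts for each library, with exon coordinates and lengths. The submitters' processing notes name the GRCm38 build, featureCounts, Subread 1.5.2, STAR 2.5.2b and Trimmomatic 0.36; options, strand setting and annotation release were not given in the sources used here. Symbols came from GENCODE M21 (GRCm38), which held 48970 of the 49315 gene IDs, and exon lengths and coordinates from the deposited tables.

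Diet groups were compared over all 5 libraries by the quasi-likelihood test of edgeR 4.0.16 (R 4.3.3) after filterByExpr and TMM, at a Benjamini-Hochberg adjusted p of 0.05; the fit was tested on simulated data. CPM values use TMM library sizes, marker sums the total counts; the distances between profiles add 0.5 CPM before log2. Approximate standard errors were derived from each coefficient and its F statistic. The length offsets used mgcv 1.9.3; other alternatives used limma 3.58.1 and DESeq2 1.42.0. GC content was known for 99.8% of tested genes. Pairs of libraries differed by a chi-square per degree of freedom of 2.64 to 8.84 within groups, so none was a copy of another. That measure cannot tell separate hearts from separate libraries of the same heart.

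The 7 genes and the gene lists were chosen with earlier results of these data known. All 7 were named, with the 3 genes of smallest p in each list, 8 partner genes whatever their p, and the nearest profiles to Cryab and Hspb7.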

Additional observations from a re-analysis of the deposited data

How the results depend on the processing

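Over 17 alternatives, Hspb7 kept its call in all and Hspb6 lost it in 1. Of the 119 results of the 7 genes, 98 kept direction and side of the threshold. The alternatives include the main fit read at a stricter adjusted p threshold of 0.01. Across all genes 4248 to 5652 were called at 0.05, against 5417 in the main fit, of which 3622 passed the threshold of 0.01. With total counts alone 62.6% of calls were lower, and scaled to the cardiomyocyte markers 80.8%, against 49.1%; the medians of all genes were -0.11 and -0.25. Scaled to the markers, the log2 fold changes were -0.53 (Hspb1) and -0.34 (Cryab), both newly called, 0.093 (Hspb6, call lost) and -0.14 (Hspb8); Hsf2 was at -0.0022, Bag3 -0.061, Hsf1 -0.22, Des -0.18 and Mapkapk2 -0.12. With total counts Hspb1 was newly called at -0.39, Hsf1 was at -0.079 and Des at -0.034. With no filter on low counts Hspb1 was called at -0.30. With the length offset Hspb1 was at 0.10, Cryab 0.23, Stub1 0.15, Hspb8 0.36 (newly called), Hspb2 -0.046 and Hspb3 -0.39 (calls lost); with length and GC they were at 0.068, 0.22, 0.13, 0.35, -0.066 and -0.40. The marker sum has Myh6 as its largest part, a gene itself called higher in HFHS hearts, as given for Hspb6 above. The causes of these changes were not tested.

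Leaving out each library gave log2 fold changes of -0.51 to -0.16 for Hspb1, -0.59 to -0.32 for Hspb2, -1.07 to -0.48 for Hspb3, 0.30 to 0.38 for Hspb6, 0.60 to 0.72 for Hspb7, 0.053 to 0.16 for Hspb8, -0.22 to 0.030 for Cryab, -0.067 to 0.45 for Bag3, -0.069 to 0.10 for Hsf1 and -1.88 to 0.15 for Hspa1b. With 1 chow library left, that library is assumed to vary like the HFHS libraries. Leaving out HFHS replicate 1, 2 or 3 kept the calls of Hspb2, Hspb3, Hspb6 and Hspb7, and without HFHS replicate 3 Hspb1 was called too. Across all genes, 4428 of 14046, 4248 of 14119 and 4929 of 14069 were called in these fits.

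The replicate numbers are not said to pair libraries, and deviations of same-numbered libraries correlated at only 0.034 and 0.007 over genes. With the number as a replicate block 6 of the 7 genes were called. Cryab at -0.19 and Hspb1 at -0.52 were newly past the threshold. In that fit 5332 of 14221 genes were called in all, and Hsf1 was at -0.044. Only HFHS has a replicate 3, so the block gave that library a term of its own and compared the other libraries. The block is thus not separate from leaving out HFHS replicate 3, where Cryab was at -0.20 and Hspb1 at -0.51. Depth limits Hspb3 most, with 77 to 212 counts a library.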
